A study of Mus musculus with 6 samples.

Results

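The platelet-derived growth factor (PDGF) ligand genes *Pdgfa*, *Pdgfb*, *Pdgfc* and *Pdgfd* and the receptor genes *Pdgfra* and *Pdgfrb* were followed across the cell populations of mouse back skin. The 6 genes were taken by symbol from the 32285 genes of the deposited count matrices. The matrices were single-cell RNA-seq counts (10x Chromium, 3′ ends) of tdTomato+ cells sorted from dorsal skin, with 1 mouse per library and 2 mice (S1 and S2) per group. All 6 mice carried a tdTomato reporter with *Cdh5*-CreERT2, a Cre that needs tamoxifen and is driven by the promoter of the VE-cadherin gene, and all received tamoxifen (200 µg/g) on postnatal day (PD) 17. Telogen mice (resting hair follicles, PD20) and anagen mice (growing hair follicles, PD32) were wild type for Alk1, also carried Krt14-H2BGFP and had the strain label C57BL/6;CD1, so that stage and age went together. Alk1 KO mice were Alk1 flox/flox, were collected in telogen at PD25, had the strain label C57BL/6 and did not carry Krt14-H2BGFP. Genotype, age, strain label and Krt14-H2BGFP therefore cannot be told apart in the comparison of Alk1 KO with telogen. The study's paper describes the Alk1 KO data as coming from its earlier work, so a difference between experiments cannot be told apart either. The genotype field of the Alk1 KO mice read wild type, and their group was taken from the sample titles.

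PDGFs are dimeric growth factors that act through a pair of receptor tyrosine kinases. The A and C chains bind mainly PDGFRα, the B chain binds both receptors, and the D chain binds mainly PDGFRβ. The C and D chains are made as latent proteins that proteases must cut. In blood vessels, endothelial PDGF-B recruits pericytes and vascular smooth muscle cells, which carry PDGFRβ, while PDGFRα is a receptor of dermal fibroblasts. Alk1, encoded by *Acvrl1*, is an endothelial receptor of BMP9 and BMP10, which acts through SMAD proteins.

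On GRCm38 the genes lie at chr5:138976014-138997370 (*Pdgfa*, minus strand), chr15:79995874-80014977 (*Pdgfb*, minus strand), chr3:81036416-81214040 (*Pdgfc*, plus strand), chr9:6168584-6378850 (*Pdgfd*, plus strand) and chr5:75152292-75198215 (*Pdgfra*, plus strand). Upstream sequence from RefSeq (GRCm38.p6) was matched for 4 of the 6 genes. The 250 bases before the start sites of *Pdgfa*, *Pdgfra* and *Pdgfd* are shown 5′ to 3′ on the gene's strand. These are the matched genes with called differences between Alk1 KO and telogen below. *Pdgfb* and *Pdgfrb* also had such differences, but no upstream sequence was matched for them. Both windows of *Pdgfa* lie inside the span of the gene given above. Capitals mark a GC box (GGGCGG) or a TATA motif (TATAAA) on either strand.
Pdgfa, chr5:138994945-138995194, minus strand: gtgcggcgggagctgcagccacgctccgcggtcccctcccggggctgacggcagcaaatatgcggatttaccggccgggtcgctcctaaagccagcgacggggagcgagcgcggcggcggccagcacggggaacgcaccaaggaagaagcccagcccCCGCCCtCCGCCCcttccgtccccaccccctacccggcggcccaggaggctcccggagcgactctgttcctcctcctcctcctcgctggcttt
Pdgfa, chr5:138994282-138994531, minus strand: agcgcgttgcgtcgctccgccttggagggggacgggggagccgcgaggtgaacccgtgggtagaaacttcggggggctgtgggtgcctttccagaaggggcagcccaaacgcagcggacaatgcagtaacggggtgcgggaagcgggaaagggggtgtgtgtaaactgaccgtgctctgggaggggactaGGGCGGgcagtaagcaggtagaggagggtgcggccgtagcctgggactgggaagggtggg
Pdgfra, chr5:75152001-75152250, plus strand: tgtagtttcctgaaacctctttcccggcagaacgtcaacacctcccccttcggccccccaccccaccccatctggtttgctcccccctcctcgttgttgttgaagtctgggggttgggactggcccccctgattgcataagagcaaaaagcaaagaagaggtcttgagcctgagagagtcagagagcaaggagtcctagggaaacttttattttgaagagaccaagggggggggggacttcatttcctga
Pdgfd, chr9:6168236-6168485, plus strand: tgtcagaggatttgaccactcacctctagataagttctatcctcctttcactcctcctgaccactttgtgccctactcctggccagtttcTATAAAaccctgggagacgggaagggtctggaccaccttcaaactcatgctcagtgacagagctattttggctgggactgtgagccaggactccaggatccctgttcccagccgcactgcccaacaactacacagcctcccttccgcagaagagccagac

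The windows of *Pdgfa* were 72.4% and 66.4% G and C, against 54.4% for *Pdgfra* and 53.6% for *Pdgfd*. The GC box occurred in both windows of *Pdgfa* and in 32.7% of 32851 mouse promoter windows of the same length. The TATA motif occurred in the window of *Pdgfd*, 160 bases before the start, and in 12.4% of all windows. A GC-rich SMAD element (GGCGCC, in 9.59% of all windows) and a palindromic one (GTCTAGAC, in 0.167%) were searched on both strands, and neither had a match in the windows of *Pdgfa*, *Pdgfra*, *Pdgfd* or *Pdgfc*. These are letter matches in a fixed window and not measured binding sites.

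Cells with 200 to 5000 genes and under 10% mitochondrial UMIs were kept, which left between 1713 and 5106 cells per library with medians of 4371 to 6935 UMIs. They were clustered without the 6 genes, and clusters were named X-like from marker genes. Artery-like, vein-like, Cap-Kdr-like (capillary) and lymphatic capillary-like (Lymph-Cap) and collecting vessel-like (Lymph-Col) endothelial cells (ECs) were found, besides pericyte-like, fibroblast-like, Schwann-like and immune populations. A population led by *Krt19* and *Sfrp5* (678 and 2654 CPM, mean of the 4 wild type libraries) is called perineurial-like, and *Cdh5* in it was at 219 CPM against 913 CPM in artery-like cells. Of the 10 fibroblast markers, *Dpt* was at 0.438 CPM in perineurial-like cells and at 667 CPM in fibroblast-like cells. All 10 had UMIs in the perineurial-like cells of each wild type library and summed there to 10533 to 13395 CPM. That sum was above the 8114 to 9698 CPM of the 13 perineurial markers in the same cells. It was below the 57133 to 68242 CPM of the fibroblast markers in fibroblast-like cells. A cluster of 1715 blood ECs led by *Iigp1*, *Adamts4* and *Stc1* met no vessel name and is called unnamed blood ECs. Macrophage-like and other immune cells were present although the sort was for the *Cdh5*-CreERT2 label. Levels are CPM, the UMIs of a gene per 1000000 UMIs of all cells of that population in a library, and 47 kept barcodes occurred in 2 libraries.

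The ligands differed in the populations that held them. *Pdgfa*, which encodes the A chain, had its highest level in pericyte-like cells, at 251 and 341 CPM in the telogen libraries and 324 and 319.5 CPM in the anagen libraries (308.8 ± 39.8, SD, n = 4). Artery-like cells (187 ± 37.5 CPM) and Lymph-Cap-like cells (167 ± 18.2 CPM) came next. Each of the 4 pericyte-like values lay above all artery-like values, while the artery-like and Lymph-Cap-like values overlapped. Schwann-like cells (129 ± 58.8 CPM), unnamed blood ECs (79.5 ± 24.2 CPM), Lymph-Col-like cells (75.5 ± 10.4 CPM) and macrophage-like cells (65.7 ± 21.9 CPM) followed in an order in which neighbours overlapped. Vein-like, Cap-Kdr-like, perineurial-like and fibroblast-like cells held 10.2 to 17.8 CPM on average.

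*Pdgfb*, which encodes the B chain, was led by Cap-Kdr-like cells, at 162 and 149 CPM in telogen and 179 and 108 CPM in anagen (149.5 ± 30.4, SD, n = 4). Artery-like cells held 115 ± 15.9 CPM, proliferative ECs 88.3 ± 31.7 CPM, unnamed blood ECs 78.1 ± 34.2 CPM and vein-like cells 42.7 ± 14.4 CPM. Each population overlapped with the next in this order, so that the blood ECs formed a gradient without a gap. Lymph-Cap-like cells held 27.2 ± 7.69 CPM and Lymph-Col-like cells 3.62 ± 1.21 CPM. *Pdgfb* was at 0, 0.35, 0 and 3.63 CPM in the fibroblast-like cells of the 4 wild type libraries.

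Pericyte-like cells held 48.7 ± 12.2 CPM of *Pdgfb*, in cells that also held EC transcripts. All 9 EC markers had UMIs in the pericyte-like cells of each library, and their summed level was 2653 to 3329 CPM in telogen, 1480 to 3284 CPM in anagen and 722 to 1786 CPM in Alk1 KO. Pericyte-like cells with at most 1 EC marker held 23.2 CPM of *Pdgfb* in telogen and 17.5 CPM in anagen, against 59.6 and 65.3 CPM in those with 3 or more. *Pdgfa* ran the other way, at 459 and 484 CPM with at most 1 EC marker and 252 and 274 CPM with 3 or more. The part of endothelial RNA in the *Pdgfb* of pericyte-like cells was not tested.

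*Pdgfd*, which encodes the D chain, was at 92.3 and 87.5 CPM in the telogen and 76.9 and 76.0 CPM in the anagen artery-like cells (83.2 ± 8.04, SD, n = 4). Cap-Kdr-like cells came next at 32.8 ± 5.18 CPM, and all 4 artery-like values lay above all values of Cap-Kdr-like cells. Pericyte-like cells held 24.5 ± 10.6 CPM, vein-like cells 13.6 ± 3.88 CPM and perineurial-like cells 11.1 ± 1.47 CPM. Lymphatic ECs held 0.35 to 4.65 CPM over the wild type libraries.

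*Pdgfc*, which encodes the C chain, was the member found least. It was led by macrophage-like cells, at 12.6, 25.5, 21.1 and 6.57 CPM in the 4 wild type libraries, the last from a single UMI in 20 cells. Pericyte-like cells held 2.34 and 15.1 CPM in telogen and 1.04 and 20.5 CPM in anagen, a spread nearly as large as their mean of 9.75 CPM. No UMI of *Pdgfc* was found in the artery-like, perineurial-like, Schwann-like or mast-like cells of any library. In artery-like cells this was 0 of 2214 wild type cells after thinning, with an upper limit of 0.166% (exact binomial, 95%).

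**Figure D1:**
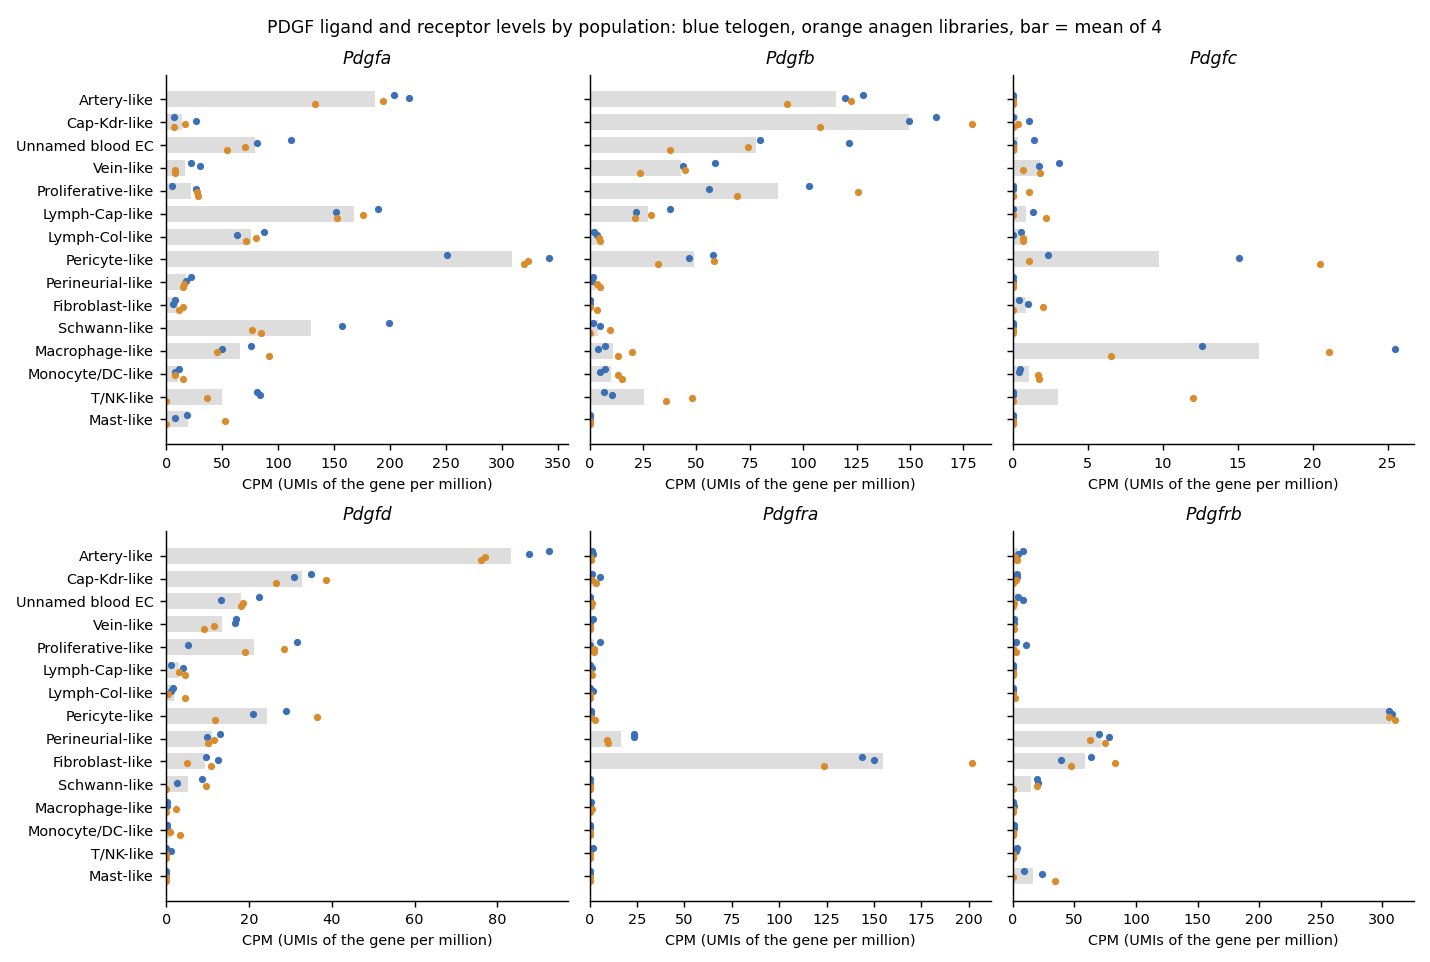
Level of each PDGF gene (CPM, linear axis from 0) in the 15 populations with at least 5 cells in each wild type library. Dots are the 2 telogen (blue) and 2 anagen (orange) libraries and bars are their mean. Pericyte-like cells lead for *Pdgfa* (309 CPM) and *Pdgfrb* (307 CPM), artery-like cells for *Pdgfd* (83.2 CPM), fibroblast-like cells for *Pdgfra* (155 CPM) and Cap-Kdr-like cells for *Pdgfb* (150 CPM).

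The receptors were held by the mesenchymal populations. *Pdgfrb* was at 305 and 308 CPM in telogen and 306 and 311 CPM in anagen pericyte-like cells (307 ± 2.42, SD, n = 4), the smallest relative spread of any member in its leading population. Perineurial-like cells (71.2 ± 6.66 CPM) and fibroblast-like cells (58.3 ± 19.3 CPM) overlapped with each other and lay below every pericyte-like value. ECs of each kind had means of 0 to 4.39 CPM. *Pdgfra* was at 144, 150, 202 and 123 CPM in the fibroblast-like cells of the 4 wild type libraries (155 ± 33.3) and at 16.5 ± 8.18 CPM in perineurial-like cells, all of whose values lay below the fibroblast-like ones. The other 13 populations had means of 0 to 2.66 CPM of *Pdgfra*.

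Shares of cells with a UMI were compared after thinning each cell to 1500 UMIs, leaving out shallower cells. *Pdgfrb* was found in 36.3% ± 5.93 (SD, n = 4) of pericyte-like cells (median 9194 UMIs before thinning), and in 0 of 670 Lymph-Cap-like cells (median 4810 UMIs, upper limit 0.549%). *Pdgfra* was found in 19.7% ± 5.79 of fibroblast-like cells (median 15783 UMIs) and in 0 of 394 pericyte-like cells (upper limit 0.932%). Among the ligands, *Pdgfa* was found in 30.1% ± 7.87 of pericyte-like cells, and *Pdgfb* in 20.7% ± 4.07 of Cap-Kdr-like cells (median 5123 UMIs). *Pdgfb* had no UMI in 464 fibroblast-like cells after thinning (upper limit 0.792%). *Pdgfd* was found in 11.8% ± 0.741 of artery-like cells (median 5117 UMIs) and in 0 of 1270 macrophage-like cells (median 12660 UMIs, upper limit 0.290%). Without thinning the shares in the leading populations were 67.6% for *Pdgfa*, 48.0% for *Pdgfb*, 36.1% for *Pdgfd*, 74.2% for *Pdgfra* and 84.2% for *Pdgfrb*. Intervals cover counting error only.

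Populations of the same mice were compared on summed counts with edgeR's quasi-likelihood test, with the library as a block. A gene was called at a Benjamini-Hochberg adjusted p below 0.05 over all genes tested and a fold above 1.3. In blood against lymphatic ECs, 3 of the 3 members tested were called, where 48.6% of all genes tested were called. *Pdgfb* was 8.86-fold higher in blood ECs (log2 difference 3.15, SE 0.138, edgeR adjusted p = 5.31e-09) and *Pdgfd* 18.7-fold higher (4.22, SE 0.258, adjusted p = 6.97e-08). *Pdgfa* was 1.36-fold lower in blood ECs (-0.45, SE 0.117, edgeR adjusted p = 0.00694), and without the library Anagen S2 this difference was -0.348 and no longer called, as under 2 of 12 alternatives (variable genes with the members, all 6 libraries). The sum of blood ECs joins vessel kinds with very different *Pdgfa* levels, from 14.2 CPM in Cap-Kdr-like to 187 CPM in artery-like cells.

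Arterial and venous ECs differed for each ligand that could be tested. In artery-like against vein-like cells 3 of 3 members were called, against 40.3% of all genes tested. *Pdgfa* was 12.8-fold higher in artery-like cells (log2 difference 3.68, SE 0.185, edgeR adjusted p = 2e-10), *Pdgfd* 6.39-fold (2.68, SE 0.131, adjusted p = 1.43e-10) and *Pdgfb* 2.77-fold (1.47, SE 0.118, adjusted p = 4.51e-08). The order of the 3 folds thus ran from the A chain over the D chain to the B chain.

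Mesenchymal populations were set apart by their receptors. In pericyte-like against fibroblast-like cells 5 of 5 members were called, against 47.6% of all genes tested. *Pdgfrb* was 4.42-fold higher in pericyte-like cells (log2 difference 2.14, SE 0.196, edgeR adjusted p = 9.78e-06) and *Pdgfa* 26.4-fold higher (4.72, SE 0.231, adjusted p = 1.8e-07). *Pdgfra* was lower by 7.82 on the log2 scale (SE 0.349, edgeR adjusted p = 1.12e-07), with 1, 1, 0 and 1 UMIs in the pericyte-like cells of the 4 libraries. *Pdgfb* (5.72, SE 0.58) and *Pdgfd* (1.04, SE 0.342) were also higher in pericyte-like cells, beside the EC transcripts given above. The call for *Pdgfd* (edgeR adjusted p = 0.0293) was lost without Telogen S1 (0.909) or without Anagen S1 (0.696), and under 3 of 10 alternatives (likely doublets removed, DESeq2, all 6 libraries).

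Perineurial-like cells were set apart from fibroblast-like cells by *Pdgfra* and from pericyte-like cells by every member tested. In perineurial-like against fibroblast-like cells 1 of 4 members was called, against 52.2% of all genes tested. *Pdgfra* was 11.9-fold lower in perineurial-like cells (log2 difference -3.57, SE 0.227, edgeR adjusted p = 8.81e-08), while *Pdgfrb* differed by -0.06 (95% interval -0.439 to 0.31, adjusted p = 0.795). Against pericyte-like cells 5 of 5 members were called, against 49.6% of all genes tested. Perineurial-like cells there had 4.63-fold less *Pdgfrb* (-2.21, SE 0.122, edgeR adjusted p = 2e-07), less *Pdgfa* (-4.20, SE 0.167, adjusted p = 2.88e-08) and more *Pdgfra* (4.41, SE 0.514, adjusted p = 4.25e-05). *Pdgfb* (-4.39, SE 0.384) and *Pdgfd* (-1.25, SE 0.234) were lower in perineurial-like cells as well.

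Telogen was compared with anagen to follow the members across the hair cycle. With 2 mice per group, the p-values rest on a spread between mice that edgeR estimates partly from the other genes tested. An exact permutation test of 1 value could not go below p = 0.333. Of the 90 pairs of a member and a population, 41 passed the low-count filter and 2 of these were called, in both cases with less in anagen. Of all genes tested in the 15 populations, 0.642% were called. An unadjusted p below 0.05 was reached by 10 of the 41 pairs. The count of called pairs was 1 without Telogen S1, 1 without Telogen S2, 4 without Anagen S1 and 3 without Anagen S2.

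*Pdgfra* in perineurial-like cells was at 23.5 and 23.6 CPM in telogen and at 8.93 and 9.82 CPM in anagen (90 and 117 against 17 and 35 UMIs). Both anagen libraries lay below both telogen libraries. The fall was 2.35-fold (log2 fold change -1.23, SE 0.222, edgeR adjusted p = 0.0454), in a comparison that called 0.923% of all genes tested. The sum of the 10 fibroblast markers in these cells was 10533 and 11029 CPM in telogen and 13395 and 10952 CPM in anagen. The 9 EC markers there summed to 415 and 478 CPM in telogen and 706 and 681 CPM in anagen. Without the cells that held 3 or more EC markers the difference was -1.20 and not called (adjusted p = 0.0758). The call was not kept with likely doublets removed (-0.61, adjusted p = 0.266) or without Harmony (-0.589, adjusted p = 0.237). In all it was lost under 8 of 14 alternatives.

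*Pdgfa* in vein-like cells was at 22.4 and 30.6 CPM in telogen and at 7.71 and 7.69 CPM in anagen (29 and 35 against 22 and 39 UMIs). Again the groups did not overlap. The fall was 3.13-fold (log2 fold change -1.65, SE 0.293, edgeR adjusted p = 0.0405), in a comparison that called 0.619% of all genes tested. The summed level of 10 artery markers in the vein-like cells was 1314 and 1815 CPM in telogen and 730 and 774 CPM in anagen, and its part in the result was not tested. The call was lost without Telogen S1 (-1.84, adjusted p = 0.19) or Telogen S2 (-1.41, adjusted p = 0.382), and under 4 of 12 alternatives (at least 500 genes, likely doublets removed, variable genes with the members, all 6 libraries in 1 fit).

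The other pairs were not called. *Pdgfb* in macrophage-like cells was at 7.23 and 4.08 CPM in telogen and 19.9 and 13.1 CPM in anagen (the last from 2 UMIs), and had the lowest unadjusted p among them (log2 fold change 1.98, SE 0.529, edgeR adjusted p = 0.0855). Both anagen values lay above the telogen values, and the summed level of 9 EC markers in the macrophage-like cells was 65 and 71 CPM in telogen against 498 and 558 CPM in anagen. *Pdgfb* also had an unadjusted edgeR p below 0.05 in perineurial-like (1.89), monocyte- and DC-like (1.45) and T/NK-like cells (2.26, 12 and 6 anagen cells). These were higher in anagen, while *Pdgfb* in unnamed blood ECs was lower at the same limit (-0.75). None of these was called. *Pdgfrb* in pericyte-like cells differed by 0.04 on the log2 scale (95% interval -0.347 to 0.433) and *Pdgfa* there by 0.16 (-0.283 to 0.597). In artery-like cells the log2 differences were -0.27 (SE 0.187) for *Pdgfa*, -0.10 (SE 0.175) for *Pdgfb* and -0.14 (SE 0.145) for *Pdgfd*. The difference in response between perineurial-like and fibroblast-like cells was called for 1 of 4 members (0.414% of all genes tested), with a log2 difference for *Pdgfra* of -1.37 (SE 0.28, edgeR adjusted p = 0.0489), lower in perineurial-like cells. That call was lost without Telogen S1 (-1.37, adjusted p = 0.0562), Telogen S2 (-1.37, adjusted p = 0.0868) or Anagen S1 (-0.979, adjusted p = 0.288) and under 9 of 11 alternatives. Between blood and lymphatic ECs 0 of 4 members were called (0.146% of all genes tested), with 1 at an unadjusted p below 0.05 in edgeR and 0 called by DESeq2. Between blood ECs and perineurial-like cells the count was 0 of 5 (0.732% of all genes tested), with 2 at an unadjusted p below 0.05 in edgeR and 0 called by DESeq2.

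Alk1 KO was compared with telogen to follow the members when the receptor gene is deleted in *Cdh5*-CreERT2 cells. The same 2 telogen libraries served as reference here and in the stage comparison. *Acvrl1* itself was at 183 and 146 CPM in telogen and 104 and 93.6 CPM in Alk1 KO Cap-Kdr-like cells, where the groups did not overlap (log2 fold change -0.89, edgeR adjusted p = 0.00277). In artery-like cells it was at 315 and 280 CPM in telogen and 310 and 256 CPM in Alk1 KO, which overlapped (-0.07, adjusted p = 0.806). Group means of telogen and Alk1 KO were 67.7 and 59.1 CPM in Lymph-Cap-like cells (-0.27, edgeR adjusted p = 0.577). They were 14.2 and 5.98 CPM in perineurial-like cells (-0.99, edgeR adjusted p = 0.438), neither called. In fibroblast-like cells they were 39.5 and 20.9 CPM (-1.28, edgeR adjusted p = 0.0241). *Acvrl1* was also called lower in unnamed blood ECs and macrophage-like cells. The library counts 3′ ends, and where they lie relative to the deleted exons is not given in the sources used here, so the level does not show how many cells had lost Alk1.

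Of the 78 pairs in 13 populations, 34 were tested and 11 were called, 5 higher and 6 lower in Alk1 KO. Of all genes tested, 17.0% were called. An unadjusted p below 0.05 was reached by 15 of the 34 pairs, and the count of called pairs was 7 without Telogen S1 and 9 to 16 without each of the others. The 4 called receptor pairs were higher in perineurial-like and fibroblast-like cells, and the 7 called ligand pairs were in ECs. The receptors passed the low-count filter only in mesenchymal populations here, so that their calls could fall nowhere else. The groups came from sorted cells of different number, with 1713 and 1958 kept cells in Alk1 KO against 3171 and 4692 in telogen.

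*Pdgfa* fell most among the ligands. In Lymph-Cap-like cells it was at 189 and 152 CPM in telogen and at 28.5 and 26.5 CPM in Alk1 KO, so that every KO value lay far below the telogen values. This was a 6.43-fold difference (log2 fold change -2.68, SE 0.186, edgeR adjusted p = 1.08e-05), in a comparison that called 14.8% of all genes tested. After thinning to 1500 UMIs, the share of Lymph-Cap-like cells with a *Pdgfa* UMI was 20.6% and 20.7% in telogen, 17.9% and 22.3% in anagen and 3.43% and 3.30% in Alk1 KO. Anagen and telogen thus overlapped, and Alk1 KO stood apart from both.

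In artery-like cells *Pdgfa* was at 204 and 217 CPM in telogen and at 39.1 and 51.6 CPM in Alk1 KO (287 and 273 against 44 and 64 UMIs). The groups did not overlap. The fall was 4.62-fold (log2 fold change -2.21, SE 0.175, edgeR adjusted p = 6.86e-06), and 18.2% of all genes tested were called in artery-like cells. The share of artery-like cells with a *Pdgfa* UMI after thinning was 20.7% and 19.3% in telogen and 3.14% and 4.23% in Alk1 KO. Both of these falls of *Pdgfa* remained called under every alternative tried and without each library in turn.

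*Pdgfa* was also called lower in unnamed blood ECs and in Lymph-Col-like cells. In unnamed blood ECs it was at 112 and 81.4 CPM in telogen and 56.5 and 26.5 CPM in Alk1 KO, without overlap (-1.18, SE 0.334, edgeR adjusted p = 0.0223), where 17.8% of all genes tested were called. This call was lost without Telogen S1 (-0.951, adjusted p = 0.119) or Alk1KO S2 (-0.687, adjusted p = 0.157), and under 3 of 11 alternatives (at least 500 genes, resolution 1.2, DESeq2). In Lymph-Col-like cells it was at 87.7 and 63.6 CPM in telogen and 26.3 and 56.5 CPM in Alk1 KO (-0.92, SE 0.292, adjusted p = 0.0499), where 17.7% of all genes tested were called. That call was lost without Telogen S1 (-0.678, adjusted p = 0.134) or Alk1KO S1 (-0.479, adjusted p = 0.176), and the direction turned at a clustering resolution of 1.2 (0.0801, adjusted p = 0.915). It held under only 6 of 14 alternatives and was lost, among others, with DESeq2, with likely doublets removed, without Harmony and with all 6 libraries in 1 fit.

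Pericyte-like cells, which had the highest level of *Pdgfa*, had no such call. Their level was 251 and 341 CPM in telogen and 349 and 294 CPM in Alk1 KO, and the groups overlapped (log2 fold change 0.04, 95% interval -0.515 to 0.59, edgeR adjusted p = 0.947). Within pericyte-like cells split by EC markers and pooled over the libraries of a group, *Pdgfa* was at 459 CPM in telogen and 396 CPM in Alk1 KO with at most 1 EC marker (64 and 76 cells). With 3 or more it was at 252 and 224 CPM (193 and 15 cells), and with no EC UMI at 521 and 277 CPM (15 and 28 cells). The pooled level was lower in Alk1 KO in each of these overlapping sets, without a measure of the spread between mice. Alk1 KO had fewer cells with many EC markers, and shallower cells show fewer markers. Pericyte-like cells gave 1283695 and 1391012 UMIs in telogen (116 and 156 cells) and 321333 and 214504 UMIs in Alk1 KO (63 and 36 cells). The sets are therefore not alike in depth between the groups. The part of EC transcripts in the pooled level was not tested. Whether the response of pericyte-like cells differed from that of ECs was not tested. *Pdgfa* in macrophage-like cells was at 75.6 and 49.6 CPM in telogen and 6.04 and 19.9 CPM in Alk1 KO, which was not called (-2.12, SE 0.59, adjusted p = 0.0519). In perineurial-like cells it was at 21.9 and 17.9 CPM in telogen and 5.98 and 5.01 CPM in Alk1 KO, also not called (-1.88, SE 0.666, adjusted p = 0.0722).

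The other EC ligands moved in both directions. *Pdgfb* in Cap-Kdr-like cells was at 162 and 149 CPM in telogen and at 267 and 315 CPM in Alk1 KO, with both KO libraries above every wild type library. The rise was 1.69-fold (log2 fold change 0.75, SE 0.182, edgeR adjusted p = 0.00565), and 33.8% of all genes tested were called in Cap-Kdr-like cells. It was not called without Telogen S2 (0.678, adjusted p = 0.0512) or without Harmony (0.767, adjusted p = 0.144). The share of Cap-Kdr-like cells with a *Pdgfb* UMI after thinning was 16.2% and 22.9% in telogen and 38.5% and 33.2% in Alk1 KO. In Lymph-Cap-like cells *Pdgfb* was at 37.6 and 21.5 CPM in telogen and at 15.4 and 12.7 CPM in Alk1 KO, without overlap (-1.15, SE 0.349, adjusted p = 0.0474). That fall was not called without Telogen S1 (-0.657, adjusted p = 0.471) or Alk1KO S2 (-0.973, adjusted p = 0.0732). It was also lost under 5 of 13 alternatives (at least 500 genes, mitochondrial UMIs under 5%, likely doublets removed, DESeq2, replicate block), which ranged from -1.72 to -0.551. Artery-like cells held 128 and 119 CPM of *Pdgfb* in telogen and 108 and 99.99 CPM in Alk1 KO, which was not called (-0.25, 95% interval -0.552 to 0.0558).

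*Pdgfd* in artery-like cells was at 92.3 and 87.5 CPM in telogen and at 44.4 and 62.1 CPM in Alk1 KO, with both KO values below all wild type values. The fall was 1.68-fold (log2 fold change -0.75, SE 0.196, edgeR adjusted p = 0.0191). It was not called without Telogen S1 (-0.718, adjusted p = 0.0599) or Alk1KO S1 (-0.544, adjusted p = 0.105), and under 2 of 14 alternatives (mitochondrial UMIs under 5%, DESeq2, adjusted p up to 0.171). In Cap-Kdr-like cells *Pdgfd* was at 35.0 and 31.0 CPM in telogen and 51.3 and 64.2 CPM in Alk1 KO, which did not overlap but was not called (0.66, SE 0.273, adjusted p = 0.0761). *Pdgfc* was tested in macrophage-like and pericyte-like cells, where its log2 differences were 0.86 (SE 0.593) and 1.21 (SE 0.966), both uncalled.

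**Figure D2:**
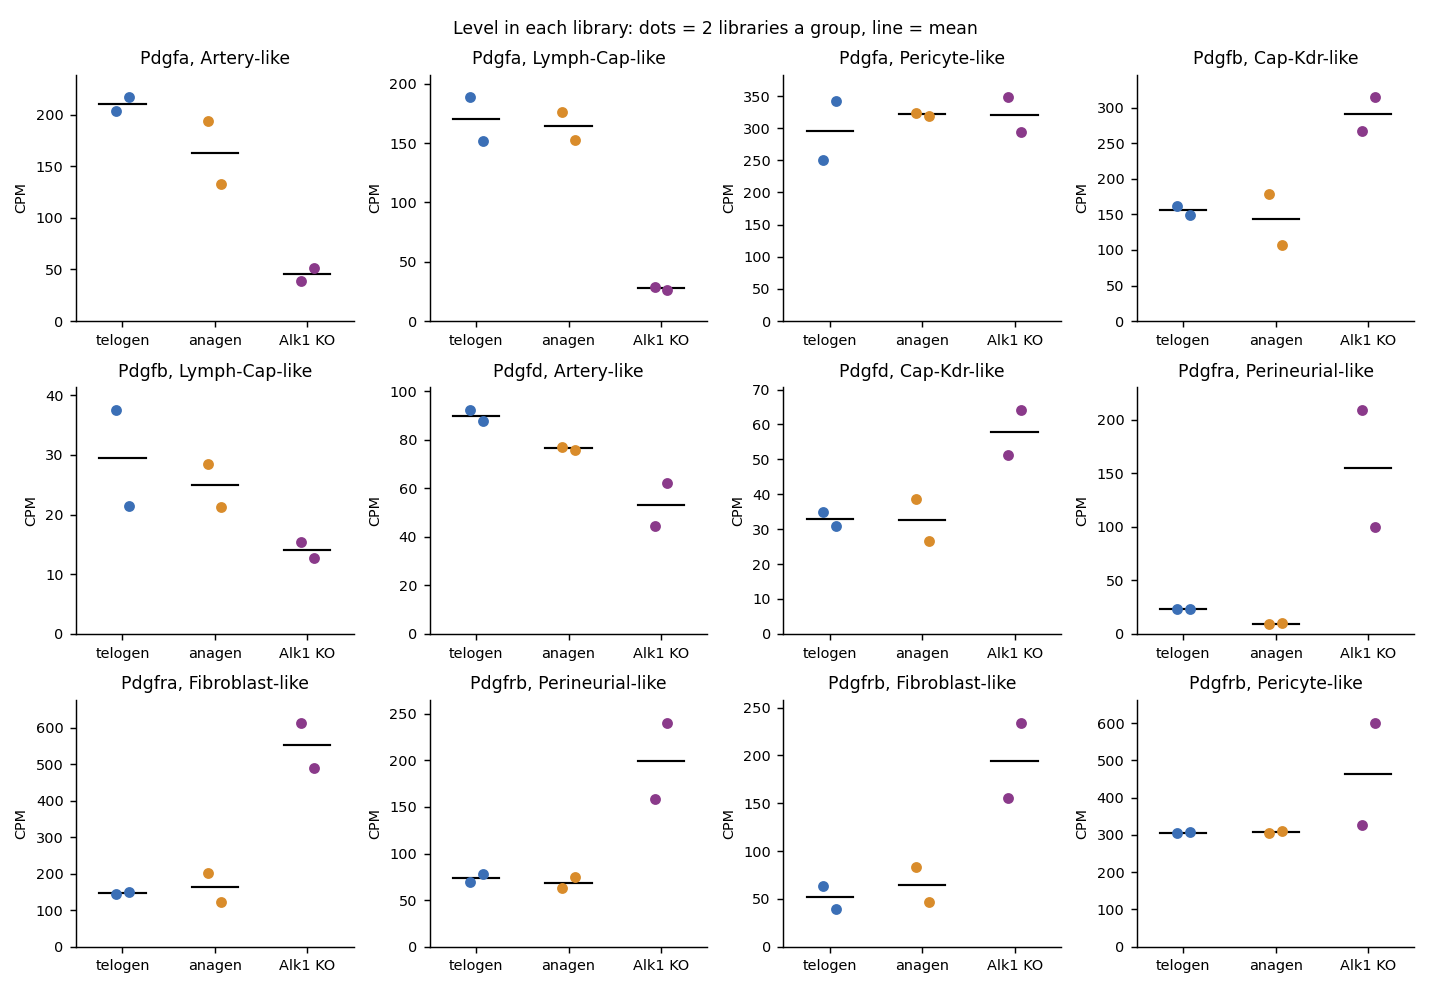
CPM of PDGF genes in named populations (linear axes from 0), with 1 dot per library for telogen, anagen and Alk1 KO and a line at the mean of 2 libraries. *Pdgfa* in artery-like cells lies at 39.1 and 51.6 CPM in Alk1 KO against 204 and 217 CPM in telogen, and *Pdgfra* in perineurial-like cells at 209 and 100 CPM against 23.5 and 23.6 CPM.

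The receptors rose in both mesenchymal populations other than pericytes. *Pdgfra* in perineurial-like cells was at 23.5 and 23.6 CPM in telogen and at 209 and 100.1 CPM in Alk1 KO (70 and 20 UMIs). Both KO values lay above every wild type value, although they differed from each other by more than the telogen libraries did. The rise was 6.61-fold (log2 fold change 2.73, SE 0.314, edgeR adjusted p = 0.000469), and 19.8% of all genes tested were called in perineurial-like cells. The share of perineurial-like cells with a *Pdgfra* UMI after thinning was 2.82% and 3.36% in telogen, 2.41% and 1.47% in anagen and 24.7% and 12.8% in Alk1 KO.

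*Pdgfrb* in perineurial-like cells was at 69.9 and 77.8 CPM in telogen and at 159 and 240 CPM in Alk1 KO (53 and 48 UMIs), without overlap. This was a 2.46-fold rise (log2 fold change 1.299, SE 0.215, edgeR adjusted p = 0.00283). The Alk1 KO values rest on 87 and 65 perineurial-like cells, against 547 and 853 in telogen. Both receptor calls in perineurial-like cells remained under every alternative tried and without each library in turn.

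In fibroblast-like cells *Pdgfra* was at 144 and 150 CPM in telogen and at 613 and 490 CPM in Alk1 KO, a 3.01-fold rise on the fitted scale (log2 fold change 1.59, SE 0.235, edgeR adjusted p = 0.00138). *Pdgfrb* there was at 63.7 and 39.3 CPM in telogen and at 155 and 234 CPM in Alk1 KO, a 3.06-fold rise (1.61, SE 0.306, adjusted p = 0.0042). Neither pair of groups overlapped, and 37.9% of all genes tested were called in fibroblast-like cells, of which 30 and 51 were found in the Alk1 KO libraries. The call for *Pdgfra* was lost without Telogen S1 (1.52, adjusted p = 0.083) or Telogen S2 (1.56, adjusted p = 0.0747), and that for *Pdgfrb* without Telogen S2 (1.23, adjusted p = 0.113).

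Pericyte-like cells, which had the highest level of *Pdgfrb*, were at 305 and 308 CPM in telogen and at 327 and 601 CPM in Alk1 KO (105 and 129 UMIs). Both KO values lay above the telogen values, but 1 of them only slightly, and the difference was not called (log2 fold change 0.48, SE 0.309, 95% interval -0.124 to 1.09, edgeR adjusted p = 0.36). The comparison called 5.63% of all genes tested in pericyte-like cells.

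Markers of the neighbouring cell types were read beside the receptor rises. The summed level of the 10 fibroblast markers in perineurial-like cells was 10533 and 11029 CPM in telogen and 7127 and 6598 CPM in Alk1 KO. In the KO libraries 6 and 5 of the 10 had UMIs. The number of markers found depends on depth, and these cells gave 334350 and 199749 UMIs in Alk1 KO against 3834992 and 4961018 in telogen. Their own 13 perineurial markers summed to 8114 and 8592 CPM in telogen and 7567 and 6528 CPM in Alk1 KO. Alk1 KO perineurial-like cells with at most 1 fibroblast marker held 24 *Pdgfra* UMIs in 51 cells (182 CPM) and those with 3 or more held 34 UMIs in 29 cells (232 CPM). Telogen perineurial-like cells with 3 or more held 23.4 CPM. The 13 pericyte markers in fibroblast-like cells summed to 604 and 445 CPM in telogen and 55 and 82 CPM in Alk1 KO, and the cells' own 10 fibroblast markers to 68242 and 57133 CPM in telogen and 25856 and 17222 CPM in Alk1 KO. The part of these lower marker levels in the receptor rises was not tested. Alk1 KO fibroblast-like cells without a pericyte marker UMI held 212 CPM of *Pdgfrb*.

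**Figure D3:**
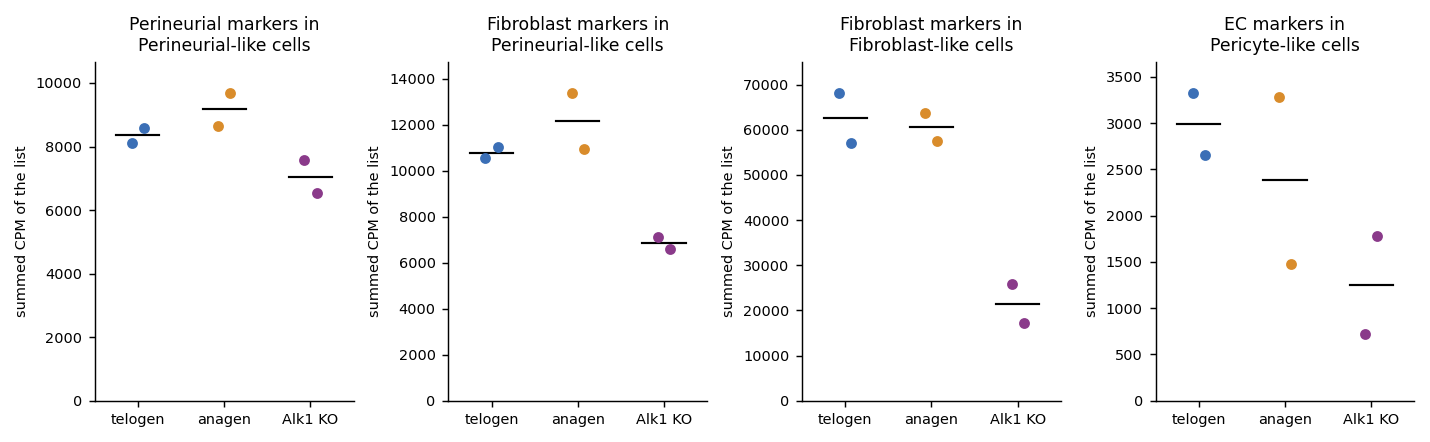
Summed CPM of marker lists per library (linear axes from 0): perineurial markers in perineurial-like cells, fibroblast markers in perineurial-like and in fibroblast-like cells, and EC markers in pericyte-like cells. Fibroblast marker sums are lower in the 2 Alk1 KO libraries (7127 and 6598 CPM in perineurial-like cells) than in telogen (10533 and 11029 CPM).

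The size of the Alk1 KO difference was compared between populations by an interaction term. Between blood ECs and perineurial-like cells, 2 of 5 members were called (5.94% of all genes tested), *Pdgfra* at -4.32 (SE 0.773, edgeR adjusted p = 0.00116) and *Pdgfrb* at -3.16 (SE 0.556, adjusted p = 0.00103), where a negative value means a higher log2 fold change in perineurial-like cells. Blood ECs held only 8 and 7 UMIs of *Pdgfra* in telogen and 3 and 1 in Alk1 KO, and 20 and 18 against 7 and 2 UMIs of *Pdgfrb*. Neither receptor passed the filter in any single EC population in this comparison. The size of both differences thus rests on few EC counts, and both calls were lost without Harmony, at 0.0232 for *Pdgfra* and -0.746 for *Pdgfrb*. Between perineurial-like and fibroblast-like cells 0 of 4 were called (4.88% of all genes tested), with 1 at an unadjusted p below 0.05 in edgeR and 0 called by DESeq2. *Pdgfra* there differed by 0.995 (SE 0.302, 95% interval 0.403 to 1.59, adjusted p = 0.0813) and *Pdgfrb* by -0.35 (-1.01 to 0.308). Between blood and lymphatic ECs 0 of 4 were called (22.4% of all genes tested), with 0 at an unadjusted p below 0.05 in edgeR and 0 called by DESeq2. For *Pdgfa* that difference was 0.16 (95% interval -0.328 to 0.638).

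A pair of further interaction tests was chosen after the values had been seen. These were run at the main settings only, with no alternative and no library left out. The change of *Pdgfb* was larger in Cap-Kdr-like than in Lymph-Cap-like cells by 1.91 on the log2 scale (SE 0.341, edgeR adjusted p = 0.00133), the 1 of 3 members called where 11.7% of all genes tested were. Between Cap-Kdr-like and artery-like cells 2 of 3 members were called (7.85% of all genes tested), *Pdgfd* at 1.46 (SE 0.313, adjusted p = 0.00592) and *Pdgfb* at 1.05 (SE 0.217, adjusted p = 0.00447). Both were larger in Cap-Kdr-like cells, where *Pdgfb* rose, than in artery-like cells, where *Pdgfd* fell.

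**Figure D4:**
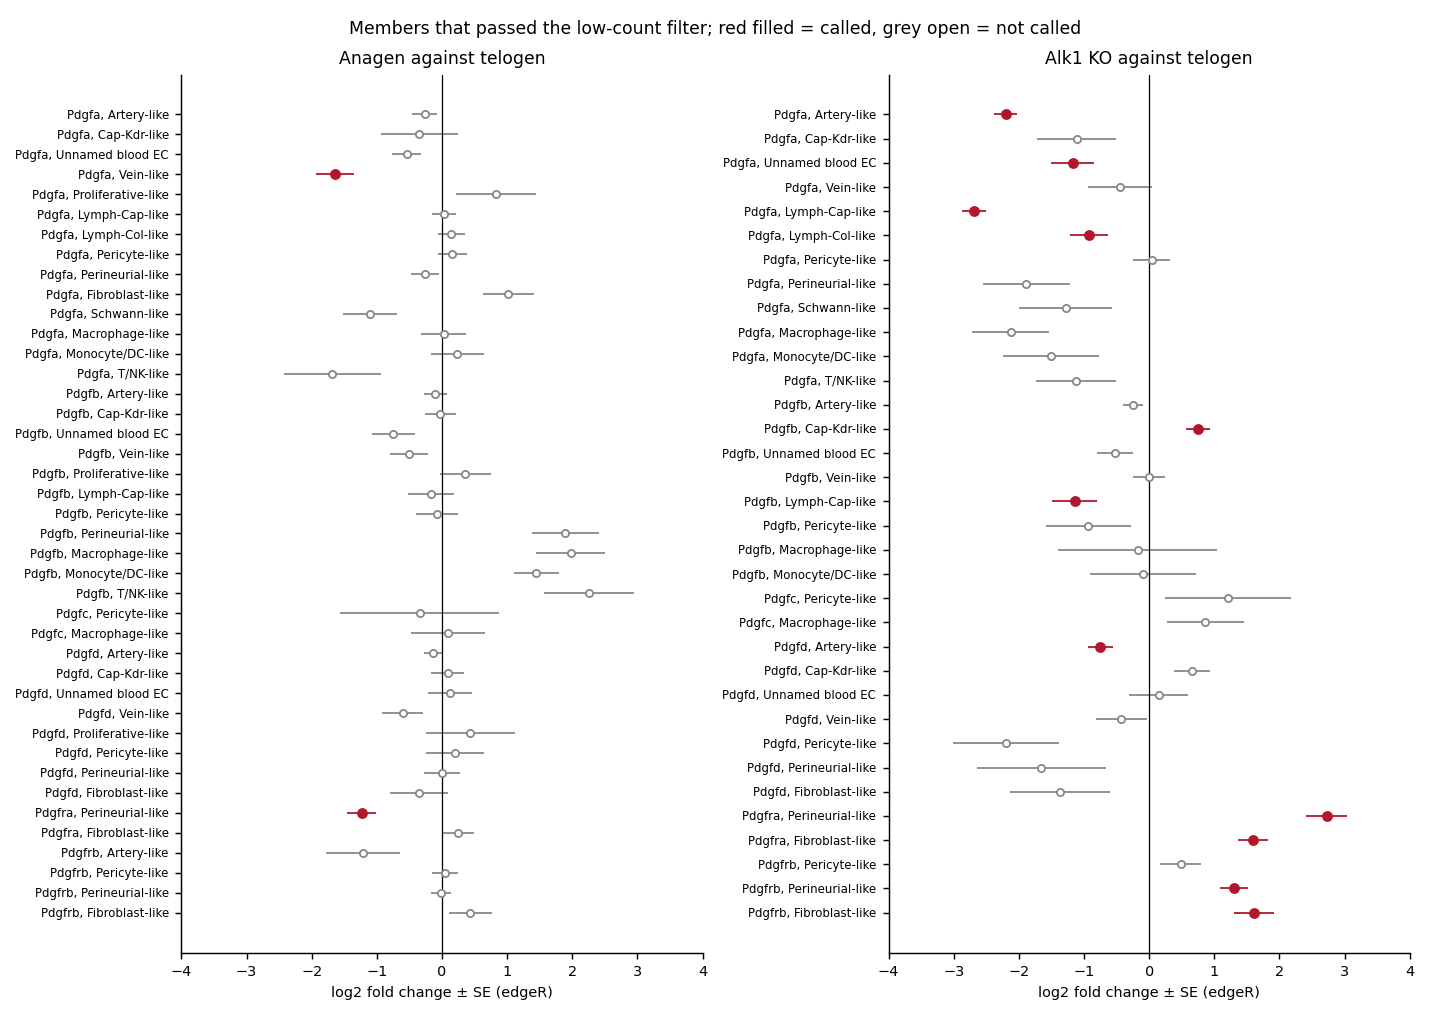
Log2 fold change (± SE) of each member and population that passed the low-count filter, for anagen against telogen (left) and Alk1 KO against telogen (right), with called pairs filled in red. The stage comparison has 2 called pairs of 41 and the Alk1 KO comparison 11 of 34, from -2.68 for *Pdgfa* in Lymph-Cap-like cells to 2.73 for *Pdgfra* in perineurial-like cells.

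A list of 51 other genes of PDGF signalling, from ligand processing to feedback, was set beside the members. In Alk1 KO against telogen, 4 rose and 4 fell of 42 tested in artery-like cells (19.0%, against 18.2% of all genes), 7 rose and 6 fell of 41 in Cap-Kdr-like cells (31.7% against 33.8%) and 3 rose and 7 fell of 44 in Lymph-Cap-like cells (22.7% against 14.8%). In perineurial-like cells 5 rose and 3 fell of 45 (17.8% against 19.8%), and in fibroblast-like cells 11 rose and 7 fell of 44 (40.9% against 37.9%). The median log2 fold change of the list was 0.01 in artery-like, 0.21 in Cap-Kdr-like, -0.12 in Lymph-Cap-like, 0.01 in perineurial-like and 0.23 in fibroblast-like cells. The medians over all genes were 0.00, 0.00, 0.02, -0.04 and -0.05. In unnamed blood ECs 9 rose and 5 fell of 41 (34.1% against 17.8%, medians 0.23 and 0.01), in Lymph-Col-like cells 4 rose and 7 fell of 42 (26.2% against 17.7%) and in monocyte- and DC-like cells 3 rose and 1 fell of 37 (10.8% against 3.09%). The list's called share was 20.9% against 21.3% in vein-like, 12.2% against 11.9% in macrophage-like and 4.65% against 5.63% in pericyte-like cells. It was 0.0% against 0.0339% in T/NK-like and 16.7% against 10.9% in Schwann-like cells. The share was thus higher in Schwann-like, Lymph-Cap-like, Lymph-Col-like and monocyte- and DC-like cells and in unnamed blood ECs. In Schwann-like cells it rests on 7 and 10 Alk1 KO cells with 19692 and 36021 UMIs in all. In the other populations tested it was within 3 percentage points of that of all genes.

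Among genes that handle the ligands, *Sparc*, a matrix protein that can bind PDGF-B, was called lower in 11 of 13 populations and higher in none. In fibroblast-like cells it was at 19053 and 18294 CPM in telogen and 1857 and 1637 CPM in Alk1 KO (log2 fold change -3.73), and in perineurial-like cells at 4344 and 4836 CPM against 1732 and 966 CPM (-1.83). *Nrp1*, a co-receptor of several growth factors, was called lower in 4 of 11 populations. In Cap-Kdr-like cells it was at 746 and 828 CPM in telogen and 214 and 239 CPM in Alk1 KO (-1.94). In Schwann-like cells, also among the 4, *Nrp1* was at 0 CPM in both Alk1 KO libraries. *Hspg2*, which encodes the heparan sulfate proteoglycan perlecan, was called lower in 5 of 12 populations and by 3.15 on the log2 scale in perineurial-like cells.

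Among the list genes for enzymes at the receptor, response and feedback, *Plcg1*, an enzyme recruited to activated PDGF receptors, was called higher in 5 of 12 populations. In perineurial-like cells it was at 24.0 and 25.6 CPM in telogen and 59.8 and 120 CPM in Alk1 KO (log2 fold change 1.67). The feedback inhibitor *Spry1* was called higher in 4 and lower in 1 of 12 populations. The fall was in Schwann-like cells, at 166 and 65.9 CPM in telogen and 0 CPM in both Alk1 KO libraries. In Cap-Kdr-like cells *Spry1* was at 75.5 and 139 CPM in telogen and 446 and 447 CPM in Alk1 KO (1.91). These cells held 2.66 CPM of *Pdgfra* and 2.26 CPM of *Pdgfrb* on average in the wild type libraries. The immediate early gene *Egr1* was called higher in 8 of 13 populations, and *Myc* was called higher in 7 and lower in 1. Whether PDGF receptors had a part in any of these changes was not tested. Across the hair cycle, between 0 and 6 list genes were called per population, with 6 of 43 in macrophage-like (against 3.35% of all genes), 2 of 48 in fibroblast-like (4.17% against 0.399%), 1 of 47 in perineurial-like (2.13% against 0.923%) and 0 of 45 in vein-like cells (0.619% of all genes).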

How the data were processed

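The authors deposited filtered UMI count matrices for each library, made with Cell Ranger 6.0.1 on mm10 with Seurat 4.0 also named in the submitters' processing notes, and these counts were used as deposited. No normalized or fold change column was used. Libraries held 2283 to 6643 barcodes and 10615358 to 43317677 UMIs. Cells with 200 to 5000 genes and under 10% mitochondrial UMIs were kept, log-normalized (numpy 2.4.6), reduced to 30 components of 3000 variable genes without the members and the 51 pathway genes, corrected with Harmony (theta 2, written in numpy after the published method), and clustered with Leiden (leidenalg 0.10.2, 20 neighbours, resolution 0.6, seed 0), which gave 23 clusters. A cluster took a name from at least 3 markers that were 2-fold over the median cluster and found in 25% of its cells. Doublets were left in and removed in an alternative.

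Counts were summed per library and population with at least 5 cells in each library, filtered with filterByExpr, TMM-scaled and tested with edgeR 4.0.16 (R 4.3.3, quasi-likelihood). DESeq2 1.42.0, cell filters, clustering, scaling, a replicate block and leaving out each library were alternatives, and scripts were tested on simulated data. Samples were grouped by their titles, and groups of 2 mice share replicate numbers without a stated link. An unnamed cluster and the blood EC and immune clusters with low UMI counts were not tested as populations (unnamed blood ECs excepted). The perineurial-like population joined several clusters. Among them was a small one with few UMIs per cell (12 and 15 Alk1 KO cells with 27821 and 17644 UMIs). Another small one had no Alk1 KO cells. A cluster of 792 blood ECs with low UMI counts did enter the sum of blood ECs and so its comparisons with other populations. Capillary-like cells led by Rgcc were not compared because no cluster took that name. A contrast could not be estimated where a member had no UMI in a group. Named pathway genes were, by comparison and population, those with the 2 largest called rises and falls, and *Egr1*, *Fos* and *Myc* were among them. The members and lists were chosen with earlier results of these data known.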

Additional observations from a re-analysis of the deposited data

Results flagged for a closer look

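The change between groups differed between populations for several members, by the test of the interaction. *Pdgfra* from telogen to anagen differed by -1.37 on the log2 scale between perineurial-like and fibroblast-like cells. That call was lost under 9 of 11 alternatives and without Telogen S1, Telogen S2 or Anagen S1. From telogen to Alk1 KO, blood ECs and perineurial-like cells differed by -4.32 for *Pdgfra* and by -3.16 for *Pdgfrb*, with few UMIs of either receptor in blood ECs (8, 7, 3 and 1 of *Pdgfra* and 20, 18, 7 and 2 of *Pdgfrb* in Telogen S1 and S2 and Alk1KO S1 and S2). Both calls were lost without Harmony, at 0.0232 and -0.746. Cap-Kdr-like and Lymph-Cap-like cells differed by 1.91 for *Pdgfb*, and Cap-Kdr-like and artery-like cells by 1.46 for *Pdgfd* and 1.05 for *Pdgfb*. These tests were chosen after the values had been seen and were run at the main settings only.

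A cluster of 264 cells with few UMIs, whose only markers were *Col1a1*, *Col1a2* and *Dcn*, was outside all comparisons and also held the receptors. Its *Pdgfra* level was 159 and 138 CPM in telogen, 26.7 and 57.5 CPM in anagen and 517 and 317 CPM in Alk1 KO (mean 417 CPM). Both Alk1 KO values lay above every wild type value, from 18 and 27 cells. *Pdgfrb* in this cluster was at 223 and 210 CPM in telogen, 35.6 and 70.3 CPM in anagen and 115 and 150 CPM in Alk1 KO, so that its highest values were those of telogen.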

How the results depend on the processing

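Of 33 called pairs, 21 stayed called under every alternative tried, and 19 of these also without each library. The 21 were all between populations or in Alk1 KO against telogen, so no stage call and no difference in response was among them. Interaction tests chosen after the values had been seen are outside the 33 and had no alternative fits. The direction turned for *Pdgfa* in Lymph-Col-like cells from telogen to Alk1 KO at resolution 1.2 (0.0801). It also turned for the *Pdgfra* difference between blood ECs and perineurial-like cells without Harmony (0.0232). The cause of either turn was not tested. For anagen against telogen the 2 called pairs became 0 with at least 500 genes, mitochondrial UMIs under 5%, DESeq2 or all 6 libraries in 1 fit (10, 5, 7 and 5 pairs at an unadjusted p below 0.05). They became 1 with likely doublets removed, no Harmony, variable genes with the members, the largest perineurial-like cluster only or EC-marker cells removed, and 4 without the low-count filter. For Alk1 KO against telogen the 11 called pairs became 7 with mitochondrial UMIs under 5% and 8 to 14 under the others. Leaving out 1 library gave 1 to 4 called pairs for the stages, 7 to 16 for Alk1 KO, 16 to 17 between populations and 1 to 3 differences in response. Between populations the 17 became 13 to 23, and the 3 differences in response became 5 without the low-count filter. The last 2 alternatives, on perineurial-like clusters and EC-marker cells, and the crossed block were chosen after seeing the data.

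With the replicate number as a block, 2 pairs were called for the stages and 11 for Alk1 KO (3 and 12 with the numbers crossed), and the call for *Pdgfb* in Lymph-Cap-like cells was lost (-1.10, edgeR adjusted p = 0.0517). The deviations of same-numbered libraries correlated at -0.171 to 0.300 over 15 populations for the stages (median -0.0188; highest in pericyte-like cells) and at -0.240 to 0.300 over 13 for Alk1 KO (median -0.019; highest in T/NK-like cells). With no stated link and no common sign, the numbers were not taken to pair the mice.

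Shares of cells with a UMI grow with depth. After thinning to 3000 UMIs they were 44.0% (*Pdgfa*, pericyte-like), 31.6% (*Pdgfb*, Cap-Kdr-like), 5.13% (*Pdgfc*, macrophage-like), 20.9% (*Pdgfd*, artery-like), 37.2% (*Pdgfra*, fibroblast-like) and 57.5% (*Pdgfrb*, pericyte-like), and without thinning 67.6%, 48.0%, 13.7%, 36.1%, 74.2% and 84.2%. With 2 mice per group, counts of 20 to 70 UMIs in the Alk1 KO perineurial-like cells and 36 to 63 Alk1 KO pericyte-like cells limit the precision there.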

Other observations

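Across the 15 populations, the genes whose mean log2(CPM + 1) over the wild type libraries ran most like each member were listed from 10180 genes, as a description over populations that share libraries and depth. *Pdgfb* ran most like *Adgrg1* (Pearson r = 0.93), *Lpar6* (0.93) and *Znfx1* (0.92), and *Pdgfd* most like *Pik3c2b* (0.96), *Epha4* (0.95) and *Lpar4* (0.95). *Pdgfra* ran most like *Pycr1* (0.97), *Inmt* (0.97) and *Aldh1a1* (0.96). *Pdgfrb* ran most like *Prrx1* (0.94), *Tbx15* (0.93) and *Vtn* (0.93), of which *Vtn* is on the pericyte marker list. *Pdgfc* followed *Adap2* (0.84), *Trem2* (0.81) and *Adap2os* (0.81). *Pdgfa* had the lowest likeness to any gene, with *Brwd1* (0.79), *Cystm1* (0.78) and *Lrrc58* (0.77).

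In fibroblast-like cells the immediate early genes *Egr1* and *Fos* were also higher in Alk1 KO, and a link to the receptor rises was not tested. *Egr1* was at 564 and 569 CPM in telogen, 926 and 805 CPM in anagen and 3748 and 3093 CPM in Alk1 KO (log2 fold change 2.28 for Alk1 KO). *Fos* was at 832 and 919 CPM in telogen, 1771 and 2113 CPM in anagen and 4875 and 4604 CPM in Alk1 KO, and it was called higher in anagen (1.25, edgeR adjusted p = 0.0327).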
